A study of Mus musculus with 3 samples.

Results

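The interleukin-1 and inflammasome genes described here were 10 genes chosen by name: Il1b, Il1a, Il1rn, Nlrp3, Casp1, Casp4, Gsdmd, Il18, Pycard and Il18bp. They were 10 of the 23860 gene columns that the 2 single-cell tables of the series hold together, and all 10 were found in the files. They were not picked by a measured value, but earlier results of these data were known when they were chosen.

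Interleukin-1 is a danger signal made in 2 forms, IL-1α and IL-1β, which share 1 receptor. IL-1β and IL-18 are made as inactive precursors, so the protein has to be cut. The cut is made by caspase-1 inside an inflammasome, in which a sensor such as NLRP3 binds caspase-1 through the adaptor ASC (Pycard). Caspase-1 and caspase-11 (Casp4) also cut gasdermin D (Gsdmd), which forms the pores through which cytokines leave and by which a cell can die. The receptor antagonist (Il1rn) blocks the IL-1 receptor, and the IL-18 binding protein (Il18bp) captures IL-18. In the liver these genes are known mainly from Kupffer cells (KCs), the resident macrophages, and from recruited monocytes and neutrophils.

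The cells were non-parenchymal cells of C57BL/6 J mouse liver, captured on the BD Rhapsody system, which counts the 3′ ends of RNA molecules by unique molecular identifiers (UMIs). One library is titled MCD, which in the study stands for a methionine-choline deficient diet. Its deposited table is named WT and headed APAP0h, and the study describes this arm as wild-type mice on a normal chow diet (NCD). The library was tied to its table by elimination and is called the MCD-titled library. The second held cells of wild-type and Chi3l1-/- mice after 16 weeks on a high-fat, high-cholesterol (HFHC) diet, in 1 capture with no genotype known per cell. It is called the HFHC pool. Diet, genotype, capture and library therefore cannot be told apart. With 1 library on each side there was no test: every interval is an exact 95% interval that covers counting error only, and a difference was listed when it reached 2-fold and the gene had a sum of 100 UMIs or more over the 2 libraries. How many mice each library held is not known from the sources used here.

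The filters left 23346 cells with 49509045 UMIs in the MCD-titled library and 19625 cells with 52044785 UMIs in the HFHC pool. The median mitochondrial share of UMIs was 5.95% and 1.11%. Before the filters, 756 cell indices were found in both libraries. Classes were named from marker genes, so that each name means "X-like", and 16 classes held at least 50 cells in both libraries. The median cell was deeper in the pool, with 4512 against 9971 UMIs in KCs and 1010 against 2112 UMIs in neutrophils. Hepatocytes were the most numerous class (7069 and 11841 cells), although non-parenchymal cells were isolated. Their median cell was shallow, with 521 against 894 UMIs, and the part of free RNA in their values was not tested. In total, 781 cells of the MCD-titled library and 218 of the pool fell into clusters with markers of 2 cell types and were left out. The upper limit of 4000 genes per cell removed 814 cells of the pool and 68 of the other library, and with them much of the RNA of the KC genes: the kept cells of the pool held 76.3% of all Il1b UMIs but 32.8% of Il1a, 38.3% of Il18 and 22.4% of Il18bp. Chil1, the gene deleted in part of the pool, stood at 49.3 UMIs of the gene per 1000000 UMIs (CPM) in the first library. It stood at 4.46 CPM in the second, which checks no cell's genotype because the pool mixes both. In public data cited by the study, its transcripts were found mainly in neutrophils. These were 3149 of the 23346 kept cells in the first library and 339 of 19625 in the pool. The part of cell composition in the Chil1 values was not tested. Immediate-early and heat-shock genes that follow tissue dissociation were higher in the pool in every one of the 16 classes, by log2 ratios of their summed CPM from 0.07 in hepatocytes to 1.59 in plasmacytoid dendritic cells (pDCs). The summed CPM of glucocorticoid response genes was lower in the pool in all 16 classes (log2 ratio −1.12 in KCs and −1.28 in neutrophils). The part of either in the differences described here was not tested.

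Il1b and Il1a lie near each other: on the genome build GRCm38, Il1b (ENSMUSG00000027398, chromosome 2, 129364570 to 129371139, minus strand) and Il1a (ENSMUSG00000027399, chromosome 2, 129299610 to 129309972, minus strand) are 54598 bases apart. Il1rn lies far from both on the same chromosome (24336853 to 24351494, plus strand). Casp1 (ENSMUSG00000025888, chromosome 9, 5298517 to 5307265, plus strand) and Casp4 (ENSMUSG00000033538, chromosome 9, 5308828 to 5336783, plus strand) are 1563 bases apart. The 250 bases before a RefSeq start (GRCm38.p6) were read for 9 of the 10 genes, which gave 13 promoters, and 3 are shown because they hold the motifs that differ among the members. In the promoters of Il1b (chr2:129371140-129371389, minus strand) and Il1a (chr2:129309973-129310222, minus strand) the capitals mark a TATA box, TATAAA, and in Il1a also an ets-type motif, GAGGAAG. In the promoter of Casp4 (chr9:5308599-5308848, plus strand) the capitals mark 3 κB-type motifs, which are GGG and TTCC separated by 3 bases of any kind, on either strand.
Il1b: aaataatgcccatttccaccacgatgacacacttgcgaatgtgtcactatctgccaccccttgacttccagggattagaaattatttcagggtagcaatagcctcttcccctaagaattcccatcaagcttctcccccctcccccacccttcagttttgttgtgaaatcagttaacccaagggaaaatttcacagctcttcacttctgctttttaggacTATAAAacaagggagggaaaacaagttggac
Il1a: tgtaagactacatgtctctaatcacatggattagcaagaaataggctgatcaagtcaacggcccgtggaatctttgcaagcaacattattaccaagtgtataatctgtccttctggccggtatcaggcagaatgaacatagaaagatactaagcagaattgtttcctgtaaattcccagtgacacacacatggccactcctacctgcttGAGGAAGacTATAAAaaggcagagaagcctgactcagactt
Casp4: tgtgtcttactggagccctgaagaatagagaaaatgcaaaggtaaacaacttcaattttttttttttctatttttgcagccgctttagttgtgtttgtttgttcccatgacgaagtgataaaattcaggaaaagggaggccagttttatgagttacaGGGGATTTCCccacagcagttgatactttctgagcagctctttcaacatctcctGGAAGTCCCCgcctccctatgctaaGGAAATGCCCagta
The TATA box was searched on the given strand and the others on both strands, and no match overlapped another. TATAAA stood 31 bases before the start of Il1b and 32 bases before that of Il1a. It occurred in no other of the 13 promoters read, against 7.59% of all 32851 promoters of this length. Gsdmd was the gene with no promoter to read. The κB-type motif occurred in both promoters of Casp4, which start 11 bases apart and share these letters, and in 1 of the 3 promoters of Il1rn, against 4.65% of all promoters. The ets-type motif occurred in Il1a, Nlrp3 and Pycard, against 10.6% of all promoters. A match describes the letters and is no binding site.

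Il1b, which encodes IL-1β, was a neutrophil transcript in both libraries. In neutrophils, monocytes and conventional dendritic cells it stood several-fold higher in the HFHC pool than in the MCD-titled library. It was lower in pDCs of the pool, while KCs held about the same level in both libraries. In neutrophils Il1b reached 3100 CPM (10599 UMIs in 3149 cells, interval 3041 to 3159) in the MCD-titled library and 14676 CPM (11425 UMIs in 339 cells, interval 14408 to 14948) in the HFHC pool. These were the highest levels of any class, and the 2 intervals lay far apart. The log2 ratio of the pool over the MCD-titled library was 2.24 (interval 2.21 to 2.28), a 4.73-fold difference. Neutrophils carried 61.7% of all Il1b UMIs of kept cells in the first library and 67.8% in the second.

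The neutrophils formed 2 clusters, and both held more Il1b in the pool. In the larger, led by Retnlg and S100a8, Il1b stood at 3195 and 15947 CPM, and in the smaller, led by Cxcl2 and Acod1, at 2606 and 11673 CPM. Il1b itself is among the leading genes of the smaller cluster, although the 10 genes and the pathway lists were kept out of the features that formed the clusters. After each cell was thinned to 1000 UMIs, 78.3% of neutrophils of the MCD-titled library (interval 76.3% to 80.3%) and 98.5% of those of the pool (interval 96.6% to 99.5%) had at least 1 Il1b UMI. Without thinning the shares were 81.0% and 98.5%. The difference was therefore seen in nearly the whole class rather than in a few cells: the tenth of cells with the most UMIs held 32.1% of neutrophil Il1b in the first library and 20.1% in the second.

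The 3 monocyte classes all held more Il1b in the pool. In classical monocytes Il1b stood at 104 CPM (84 UMIs) in the MCD-titled library and 351 CPM (531 UMIs) in the pool, a log2 ratio of 1.75 (interval 1.43 to 2.11). In the second group of classical monocytes, whose leading genes are Ly6i, Clec4e, Cxcl9, Acod1 and Gbp2 and which is called the Ly6i-led monocytes, it stood at 145 CPM (92 UMIs) and 653 CPM (1185 UMIs), a log2 ratio of 2.15 (interval 1.86 to 2.49). These 2 ratios overlapped in their intervals. In non-classical monocytes, the patrolling cells of the vessel wall, Il1b stood at 47.1 CPM (11 UMIs) and 548 CPM (197 UMIs), a log2 ratio of 3.42 (interval 2.67 to 4.57). That value rests on 11 UMIs in 1 library, and it was 1.90 when both the gene limit was dropped and classes were named from each cell's marker UMIs, which made this class 160 and 169 cells instead of 98 and 80. It was 1.94 with classes from marker UMIs and the gene limit kept, and 2.92 when cells with a UMI of S100a8 or S100a9 were left out. The Il1b of monocytes was uneven among cells: in the pool, the tenth of cells with the most UMIs held 67.8% of the Il1b of classical monocytes and 68.1% of that of Ly6i-led monocytes.

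KCs as a whole did not share the several-fold higher Il1b level of the pool. Their Il1b stood at 274 CPM (3732 UMIs in 2755 cells, interval 265 to 283) and 296 CPM (1047 UMIs in 389 cells, interval 278 to 314), a log2 ratio of 0.11 (interval 0.01 to 0.21). Within KCs the ratio was 0.13 in the larger cluster (3420 and 1009 UMIs) and −1.39 (interval −2.34 to −0.73), past 2-fold lower, in a smaller one led by Marco, Wfdc17 and Fcna (223 and 15 UMIs). Monocyte-derived macrophages (MoMFs), the cells that replace lost KCs, held 286 CPM (interval 233 to 346) and 335 CPM (interval 298 to 375), a log2 ratio of 0.22 (interval −0.10 to 0.57), which was 0.76 with classes from marker UMIs. The intervals of KCs and MoMFs overlapped in the MCD-titled library, where these classes came next after neutrophils. In the pool the order was another one: Ly6i-led monocytes at 653 CPM and non-classical monocytes at 548 CPM, whose intervals met, stood above classical monocytes, MoMFs and KCs. After thinning to 1000 UMIs, 19.96% of KCs of the MCD-titled library and 17.8% of those of the pool had an Il1b UMI, while the shares were 6.88% and 19.0% in classical monocytes, 13.5% and 27.1% in Ly6i-led monocytes, and 6.32% and 22.5% in non-classical monocytes. B cells, which should lack Il1b, had shares of 1.80% and 1.23% at median depths of 1302 and 2597.5 UMIs.

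**Figure D1:**
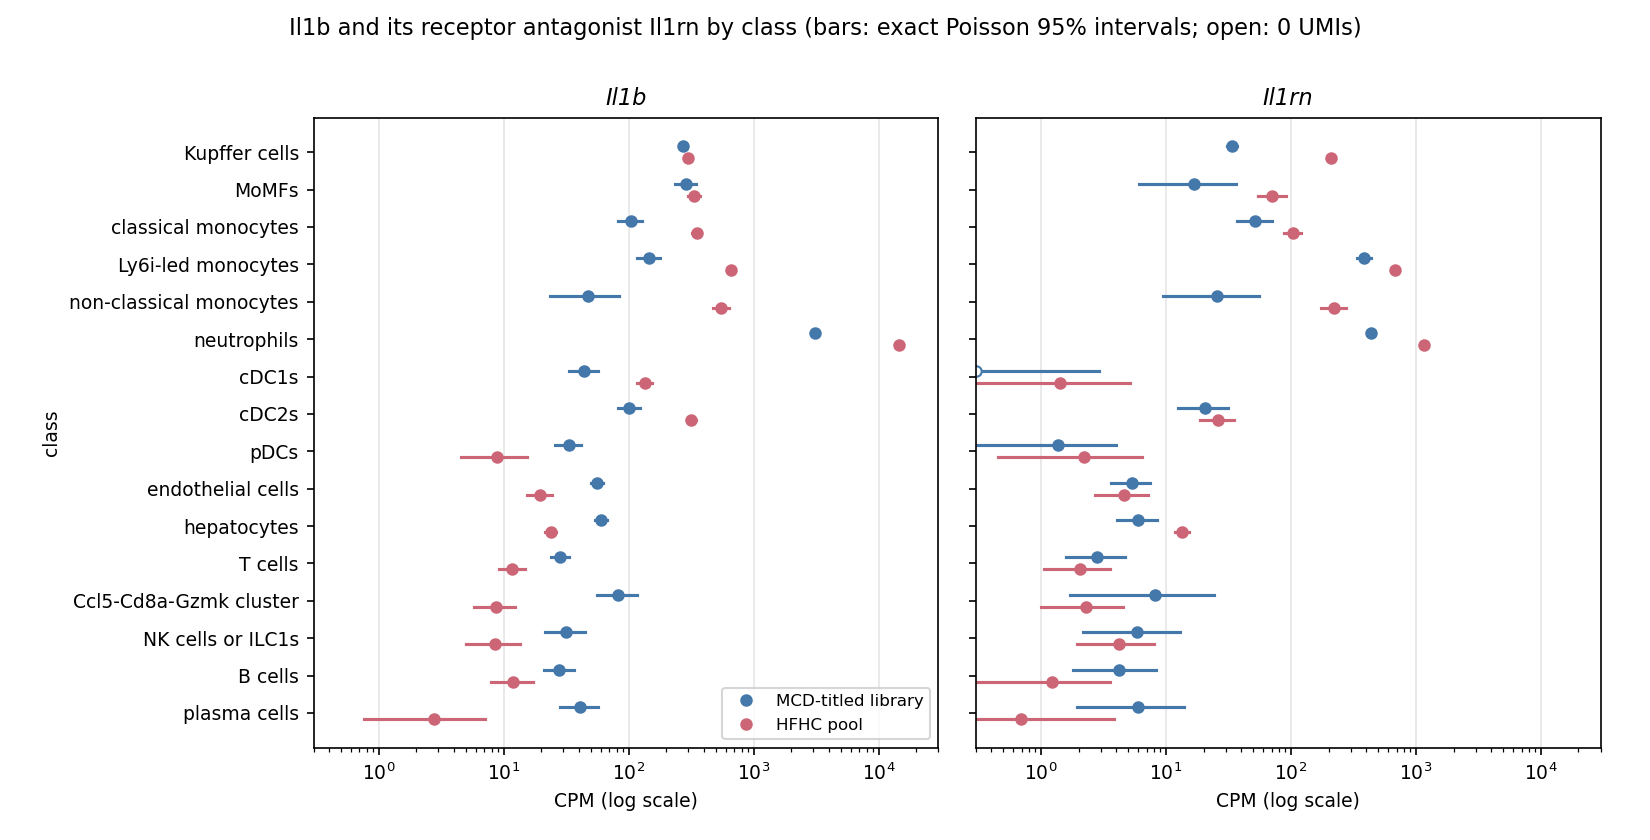
Level of Il1b (left) and Il1rn (right) in 16 classes, in CPM on a logarithmic axis, with 1 point per class and library and bars for the exact Poisson 95% interval. Il1b lies to the right in the HFHC pool for neutrophils (3100 to 14676 CPM), the 3 monocyte classes, cDC1s and cDC2s, nearly coincides in Kupffer cells (274 and 296 CPM), and lies to the left in lymphocytes, endothelial cells and hepatocytes.

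Conventional dendritic cells also held more Il1b in the pool. Il1b stood at 44.0 and 134 CPM in type 1 cells (cDC1s, log2 ratio 1.59, interval 1.17 to 2.07) and at 101 and 317 CPM in type 2 cells (cDC2s, log2 ratio 1.64, interval 1.34 to 1.98). The ratio in cDC1s was 0.94, under 2-fold, when cells with more than 4000 genes were kept and all classes were named from each cell's marker UMIs. In the pool, the tenth of cells with the most UMIs held 79.4% of the Il1b of cDC1s and 68.5% of that of cDC2s.

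In the remaining classes the direction was the opposite one. Il1b was lower in the pool in T cells (28.3 and 11.7 CPM, log2 ratio −1.26, interval −1.71 to −0.85), in endothelial cells (55.6 and 19.3 CPM, log2 ratio −1.51, interval −1.90 to −1.16) and in hepatocytes (60.4 and 23.8 CPM, log2 ratio −1.34, interval −1.56 to −1.12). B cells, natural killer (NK) cells or type 1 innate lymphoid cells (ILC1s), pDCs and plasma cells had under 100 Il1b UMIs each and were lower in the pool as well. Each of the 3 listed ratios came under 2-fold in some alternatives, among them the one in which called doublets were taken out.

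Transcripts typical of neutrophils were found in all 16 classes of both libraries. They were lower in the pool in all of them except non-classical monocytes, whether Il1b was lower or higher. The neutrophil transcripts S100a8 and S100a9, which encode calprotectin, together reached 50595 CPM in neutrophils of the MCD-titled library and 35511 CPM in those of the pool. In B cells they stood at 284 CPM in the first library and 9.80 CPM in the second, and in KCs at 101 and 12.1 CPM. Where Il1b was higher in the pool, they stood at 652 and 222 CPM in classical monocytes, 327 and 3.55 CPM in cDC1s and 367 and 179 CPM in cDC2s. Non-classical monocytes went the other way, at 137 and 506 CPM (32 and 182 UMIs). All 182 UMIs of the pool lay in 4 of its 80 non-classical monocytes, while the 32 of the other library lay in 19 of 98. For every 100 UMIs of S100a8 and S100a9 there were 6.13 Il1b UMIs in neutrophils and 9.81 in B cells of the MCD-titled library, and 41.3 and 121 in the pool. KCs held 271 and 2435 Il1b UMIs per 100 in the same order, and cDC1s of the pool 3780. With all cells that had a UMI of S100a8 or S100a9 left out, the log2 ratio of Il1b was 0.23 in KCs, 2.14 in classical monocytes, 2.45 in Ly6i-led monocytes and 2.92 in non-classical monocytes. Under the same exclusion the ratio came under 2-fold in T cells and endothelial cells and stayed past 2-fold lower in hepatocytes.

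**Figure D2:**
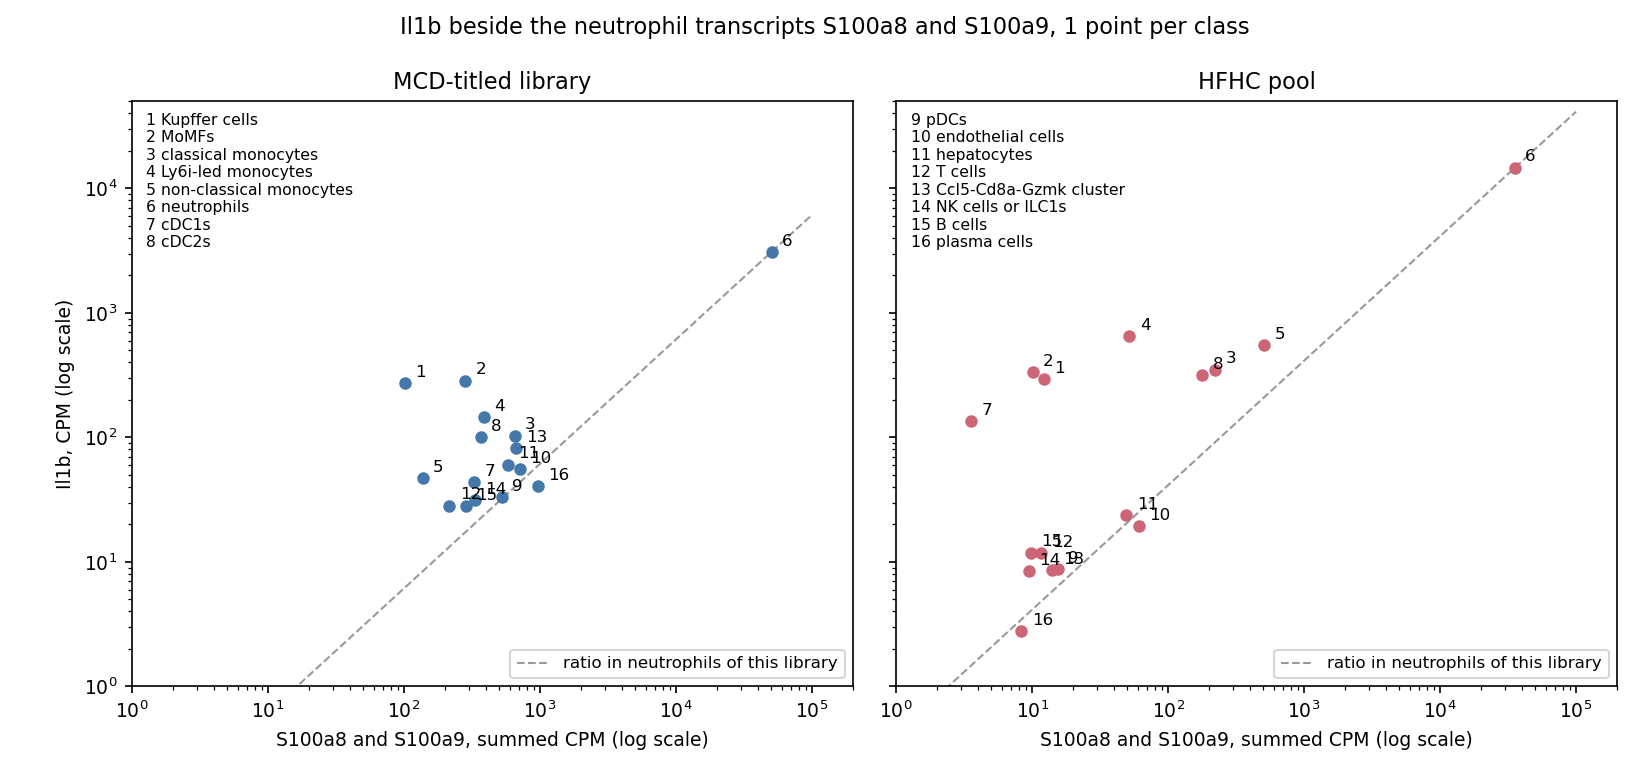
Level of Il1b against the summed level of S100a8 and S100a9, both in CPM on logarithmic axes, with 1 numbered point per class and a dashed line for the ratio of both in neutrophils of the same library. Hepatocytes (10.4 and 48.4), endothelial cells (7.82 and 31.5), pDCs and plasma cells lie near the line in both panels, whereas Kupffer cells (271 and 2435 Il1b UMIs per 100 of S100a8 and S100a9) and the other macrophages and monocytes lie above it.

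Il1a, which encodes IL-1α, had a different place from Il1b. KCs and endothelial cells together carried most of it: 44.6% and 43.1% of its UMIs in the MCD-titled library, and 44.0% and 36.5% in the pool, all of kept cells. The kept cells of the pool held 1802 of its 5487 Il1a UMIs. Without the gene limit and with classes from marker UMIs, 3357 of the 5487 fell into KCs, 975 into MoMFs and 795 into endothelial cells. In KCs Il1a stood at 100 CPM (1367 UMIs, interval 95.2 to 106) and 224 CPM (793 UMIs, interval 209 to 240), a log2 ratio of 1.16 (interval 1.03 to 1.28). In endothelial cells it stood at 219 CPM (1320 UMIs) and 167 CPM (657 UMIs), a log2 ratio of −0.39 (interval −0.52 to −0.25). The order of the 2 leading classes was thus reversed between the libraries, and the intervals of the 2 classes did not meet in either. The ratio in KCs was 0.94, under 2-fold, when classes were taken from each cell's own marker UMIs. Monocytes held almost no Il1a, with at most 12 UMIs in a class and library. Neutrophils had 14 Il1a UMIs in 3149 cells of the MCD-titled library and 55 in 339 cells of the pool. The level was thus higher in the pool, but the sum stayed under the 100 UMIs needed for listing. Without the gene limit and with classes from marker UMIs, it stood at 4.39 CPM (16 UMIs) and 30.9 CPM (24 UMIs), a log2 ratio of 2.79 (interval 1.85 to 3.83).

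Within KCs of the pool, Il1a was found more often in cells with an Il1b UMI than in cells without one. After thinning to 1000 UMIs, 35.8% of the 67 KCs with an Il1b UMI also had one of Il1a (interval 24.5% to 48.5%), against 13.3% of the 309 KCs without (interval 9.69% to 17.6%). In the MCD-titled library the shares were 11.3% of 494 and 8.63% of 1981 KCs, whose intervals overlapped. The cells of a library share 1 capture and are not replicates.

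Il1rn, the receptor antagonist, was 2.67-fold to 6.15-fold higher in the pool in neutrophils and KCs. KCs showed the larger ratio: Il1rn stood at 34.0 CPM (463 UMIs, interval 31.0 to 37.3) in the MCD-titled library and 209 CPM (741 UMIs, interval 195 to 225) in the pool, a log2 ratio of 2.62 (interval 2.45 to 2.79). It was 2.04 when the gene limit was dropped and classes came from marker UMIs, and 2.15 with classes from marker UMIs and the limit kept. The tenth of KCs with the most Il1rn UMIs held 87.7% of them in the MCD-titled library and 70.9% in the pool, where 1 cell held 80. In neutrophils Il1rn stood at 435 CPM (1488 UMIs) and 1160 CPM (903 UMIs), a log2 ratio of 1.42 (interval 1.29 to 1.53). In Ly6i-led monocytes it stood at 384 CPM (243 UMIs) and 683 CPM (1241 UMIs), a log2 ratio of 0.83 (interval 0.63 to 1.04), and in classical monocytes at 51.8 CPM (42 UMIs) and 103 CPM (156 UMIs), a log2 ratio of 0.97 (interval 0.49 to 1.52). Both stayed under 2-fold, Il1rn is among the 10 leading genes of the Ly6i-led cluster, and 1 classical monocyte of the pool held 49 of its class's 156 UMIs. Of the Il1rn UMIs of kept cells, neutrophils held 58.0% in the first library, with 3149 neutrophils, and 24.1% in the second, with 339, and Ly6i-led monocytes held 9.48% and 33.1%. The kept cells held 57.6% of all Il1rn UMIs of the pool.

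The balance of antagonist and cytokine RNA therefore shifted in opposite directions. For every 100 Il1b UMIs, KCs held 12.4 Il1rn UMIs (interval 11.2 to 13.7) in the MCD-titled library and 70.8 (interval 64.3 to 77.8) in the pool. Neutrophils held 14.0 (interval 13.3 to 14.8) and 7.90 (interval 7.38 to 8.46), and Ly6i-led monocytes 264 (interval 207 to 340) and 105 (interval 96.6 to 113). In these 3 classes the intervals of the 2 libraries did not overlap. In classical monocytes the values were 50 (interval 33.7 to 73.3) and 29.4 (interval 24.4 to 35.2), whose intervals did. These ratios count molecules at the 3′ ends and are compared only between classes and libraries, not as absolute amounts of the 2 RNAs.

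Nlrp3, the sensor, did not follow Il1b between the libraries in neutrophils, monocytes and macrophages. Neutrophils held 883 CPM (3021 UMIs, interval 852 to 916) and 1146 CPM (892 UMIs, interval 1072 to 1224), a log2 ratio of 0.38 (interval 0.27 to 0.48). KCs held 213 CPM (2905 UMIs, interval 206 to 221) and 152 CPM (537 UMIs, interval 139 to 165), a log2 ratio of −0.49 (interval −0.63 to −0.36). Ly6i-led monocytes held 190 and 117 CPM (log2 ratio −0.70, interval −1.02 to −0.36), MoMFs 233 and 174 CPM, and classical monocytes 165 and 145 CPM (log2 ratio −0.19, interval −0.51 to 0.13). Below neutrophils, the intervals of MoMFs, KCs and the classes next to them met in both libraries. Nlrp3 was under 2-fold in every one of these classes, and its ratio was below 1 in 14 of the 16 classes. In endothelial cells and hepatocytes it was past 2-fold lower in the pool (log2 ratios −1.47 and −1.37), as Il1b was (−1.51 and −1.34). Of 11 alternatives, these Nlrp3 ratios stayed past 2-fold in 7 and 5. Across classes, however, Nlrp3 was the gene whose level was most like that of Il1b, with a Pearson correlation of 0.901 of log2(CPM + 10) over 32 points. The points are 16 classes that share 2 libraries, and the part of free RNA in them was not tested, so this describes the pattern alone.

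Pycard and Gsdmd, the adaptor and the pore-forming protein, were lower in the pool almost everywhere. Gsdmd was lower in 16 of 16 classes, with log2 ratios from −0.27 to −1.29, and this direction in all classes was met by 7.57% of the genes with at least 20 UMIs in every class (291 of 3842). In KCs Gsdmd stood at 141 CPM (1924 UMIs, interval 135 to 148) and 83.0 CPM (294 UMIs, interval 73.8 to 93.1), a log2 ratio of −0.76 (interval −0.95 to −0.59). Without the gene limit and with classes from marker UMIs, that ratio was −1.01. In neutrophils it stood at 173 and 98.9 CPM (log2 ratio −0.79, interval −1.17 to −0.46), in Ly6i-led monocytes at 316 and 171 CPM (log2 ratio −0.89, interval −1.15 to −0.62), and in hepatocytes at 66.5 and 42.3 CPM (log2 ratio −0.66, interval −0.84 to −0.46). Gsdmd was the most evenly spread of the 10 genes, with 59.6 to 316 CPM in the MCD-titled library and 24.3 to 189 CPM in the pool.

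Pycard was lower in the pool in 15 of 16 classes, B cells being the exception (41.5 and 47.8 CPM). Plasma cells had the highest level in both libraries, at 316 CPM (265 UMIs, interval 279 to 357) and 152 CPM (219 UMIs, interval 132 to 173), a log2 ratio of −1.06 (interval −1.32 to −0.79) that ranged from −2.72 to −0.42 over 10 alternatives and came under 2-fold in 3. With each library clustered by itself, pDCs were highest in the MCD-titled library and cDC2s in the pool, and cDC2s were also highest in the pool with classes from marker UMIs. pDCs held 219 and 124 CPM. KCs stood at 77.3 CPM (1052 UMIs) and 50.3 CPM (178 UMIs), a log2 ratio of −0.61 (interval −0.86 to −0.39). Neutrophils, which led in Il1b and Nlrp3, had 37 Pycard UMIs in the MCD-titled library and 5 in the pool, or 10.8 and 6.42 CPM, among the lowest levels of the 16 classes.

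The 2 caspases were past 2-fold higher in the pool in T cells, neutrophils and an unnamed cluster, and Casp4 also in NK cells or ILC1s and cDC2s, while Casp1 was past 2-fold lower in hepatocytes (8.21 and 3.65 CPM, log2 ratio −1.18, interval −1.76 to −0.57). Casp1 stood at 147 and 161 CPM in KCs (log2 ratio 0.13, interval −0.00 to 0.27), at 126 and 158 CPM in classical monocytes (log2 ratio 0.32, interval −0.01 to 0.68) and at 160 and 150 CPM in Ly6i-led monocytes (log2 ratio −0.09, interval −0.42 to 0.26). The T cell class was made up of different clusters in the libraries: one led by Foxp3 and Tcf7 gave 586 of 2756 T cells in the MCD-titled library and 953 of 1686 in the pool, and one led by Cxcr6 gave 1816 and 598. In T cells Casp1 stood at 22.8 CPM (121 UMIs) and 71.2 CPM (420 UMIs), a log2 ratio of 1.63 (interval 1.35 to 1.95). Within its 3 clusters the ratio was 1.68 (Foxp3-led), 1.12 (Cxcr6-led) and 0.68 (14 and 21 UMIs, interval −0.33 to 1.80). In neutrophils Casp1 stood at 30.1 CPM (103 UMIs) and 62.9 CPM (49 UMIs), a log2 ratio of 1.08 (interval 0.54 to 1.57). In a cluster led by Ccl5, Cd8a and Gzmk that met no name, it stood at 30.1 CPM (11 UMIs) and 109 CPM (378 UMIs), a log2 ratio of 1.73 (interval 0.995 to 2.87).

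Casp4, whose product caspase-11 senses bacterial lipopolysaccharide inside the cell, stood at 12.4 CPM (66 UMIs) and 50.4 CPM (297 UMIs) in T cells, a log2 ratio of 2.0 (interval 1.63 to 2.42), and at 18.7 CPM (19 UMIs) and 63.5 CPM (135 UMIs) in NK cells or ILC1s, a log2 ratio of 1.70 (interval 1.07 to 2.54). In neutrophils it stood at 46.5 CPM (159 UMIs) and 103 CPM (80 UMIs), a log2 ratio of 1.15 (interval 0.74 to 1.54), which was 0.79 under the lowest of the alternatives. In cDC2s it stood at 22.4 CPM (22 UMIs) and 54.8 CPM (91 UMIs), a log2 ratio of 1.24 (interval 0.61 to 2.03), where Casp1 differed by 0.23, and in cDC1s it had 11 and 38 UMIs. In KCs it stood at 36.7 and 48.0 CPM (log2 ratio 0.39, interval 0.13 to 0.64), and in classical monocytes at 94.9 and 122 CPM (log2 ratio 0.35, interval −0.03 to 0.76). The 2 caspase genes lie next to each other on chromosome 9, and for every 100 Casp1 UMIs KCs held 25.1 and 29.9 of Casp4, classical monocytes 75.5 and 77.0, and neutrophils 154 and 163. Within each of these classes the 2 libraries' intervals overlapped, while those of KCs lay below those of classical monocytes and neutrophils in both.

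**Figure D3:**
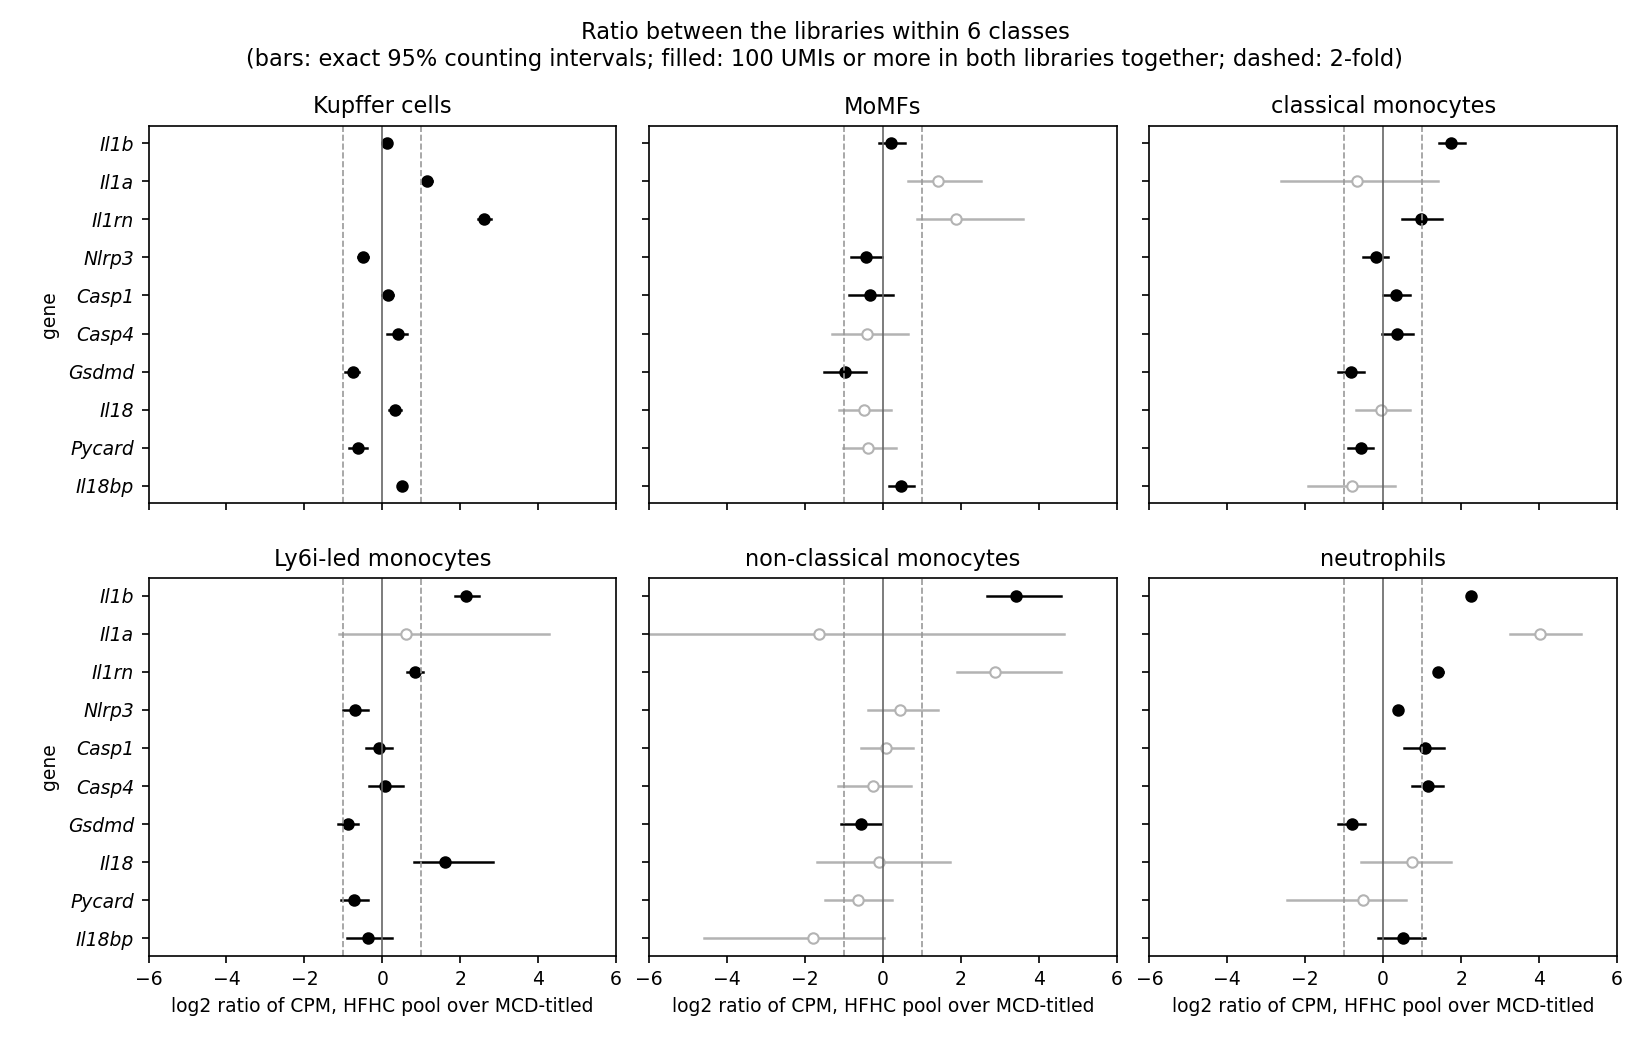
Log2 ratio of the CPM of the HFHC pool over the MCD-titled library for each of the 10 genes in 6 classes, with bars for the exact 95% counting interval, filled points for genes whose UMIs sum to 100 or more over the 2 libraries and dashed lines at 2-fold. Il1b is near 0 in Kupffer cells (0.11) and MoMFs (0.22) and beyond 2-fold in the 3 monocyte classes and neutrophils (1.75 to 3.42), while Gsdmd lies left of 0 in all 6 panels.

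Il18 and its binding protein were highest in KCs, with MoMFs next among the 16 classes. Il18bp stood at 919 CPM (12512 UMIs, interval 903 to 936) and 1296 CPM (4588 UMIs, interval 1259 to 1334) in KCs, a log2 ratio of 0.50 (interval 0.45 to 0.54), and at 286 CPM (103 UMIs) and 399 CPM (355 UMIs) in MoMFs, a log2 ratio of 0.47 (interval 0.16 to 0.81). Without the gene limit and with classes from marker UMIs, Il18bp in MoMFs stood at 329 and 915 CPM, a log2 ratio of 1.47 (interval 1.28 to 1.68). KCs carried 80.0% of its UMIs in kept cells of the MCD-titled library and 75.4% in those of the pool, and after KCs and MoMFs the third of the 16 classes, the Ly6i-led monocytes, held 60.01 and 47.4 CPM. Stellate cells, the vitamin A-storing cells, were too few to be among the 16 classes (95 and 30 cells). Their cluster held Il18bp at 451 and 548 CPM and Il18 at 69.3 and 104 CPM. Markers of endothelial cells came second in this cluster, and the part of RNA from other cells in these values was not tested. Il18 stood at 101 CPM (1372 UMIs, interval 95.5 to 106) and 127 CPM (449 UMIs, interval 115 to 139) in KCs, a log2 ratio of 0.33 (interval 0.17 to 0.49). For every 100 Il18 UMIs KCs held 912 of Il18bp (interval 862 to 965) in the first library and 1022 (interval 927 to 1128) in the second, whose intervals overlapped. In Ly6i-led monocytes Il18 stood at 15.8 CPM (10 UMIs) and 52.9 CPM (96 UMIs), a log2 ratio of 1.62 (interval 0.80 to 2.85). Hepatocytes, the most numerous class with 7069 and 11841 cells, held 18.3 and 24.0 CPM of Il18 (96 and 401 UMIs).

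**Figure D4:**
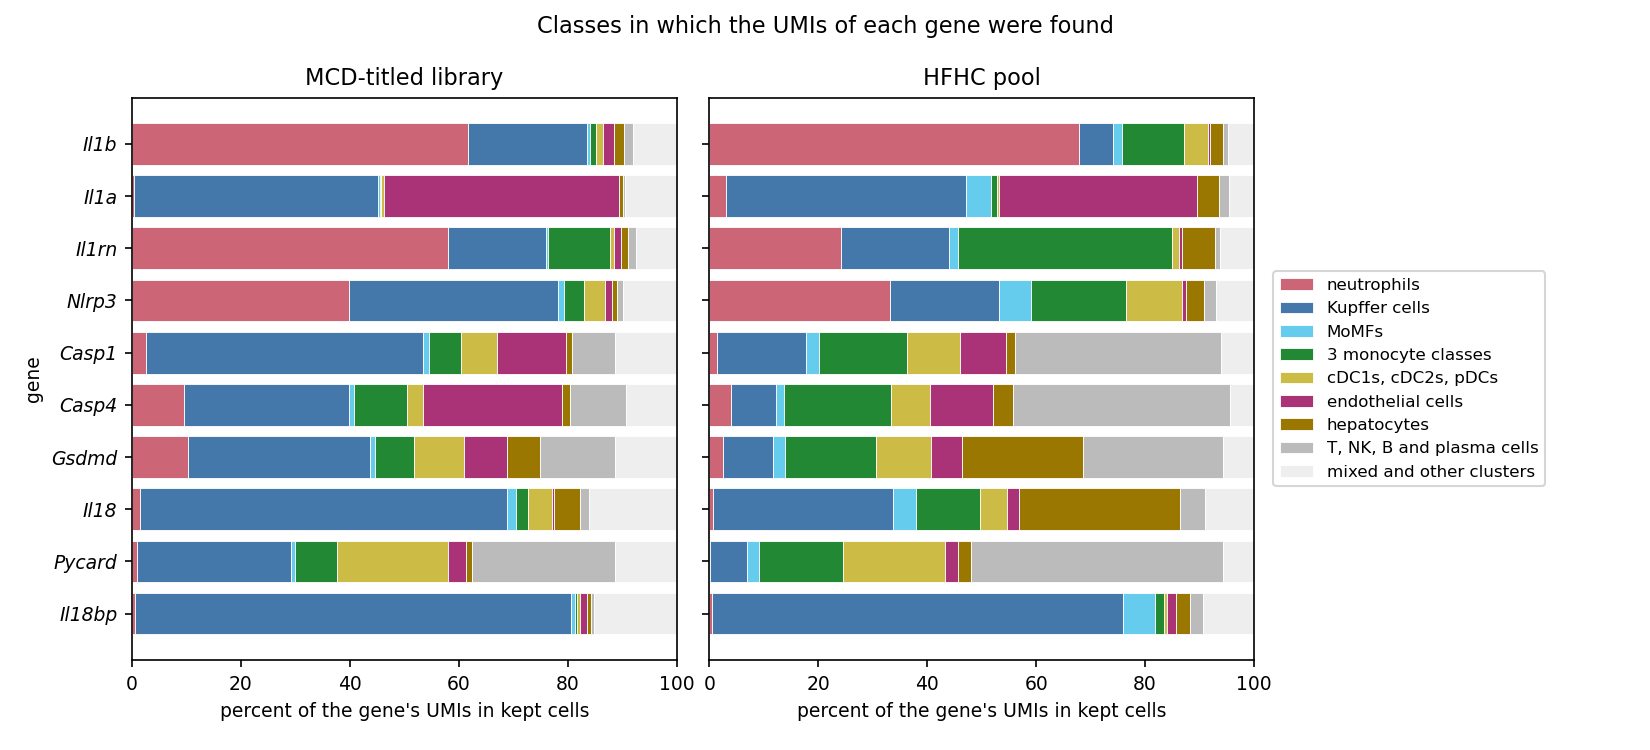
Share of each gene's UMIs in kept cells that fell into each group of classes, in percent, in the MCD-titled library (left) and the HFHC pool (right); the group of T, NK, B and plasma cells includes the cluster led by Ccl5, Cd8a and Gzmk. Neutrophils held 61.7% and 67.8% of Il1b, Kupffer cells 80.0% and 75.4% of Il18bp, and Kupffer and endothelial cells together most of Il1a.

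Counted over the 10 genes, a larger part was listed in neutrophils than in KCs. The share of all genes past 2-fold was larger in neutrophils too. In KCs 2 of 10 genes with enough UMIs, Il1a and Il1rn, were at least 2-fold higher in the pool and 0 lower, against 3.68% and 3.9% of all genes tested in KCs. In neutrophils 4 of 7, Il1b, Il1rn, Casp1 and Casp4, were higher and 0 lower, against 8.52% and 4.6%. In classical monocytes 1 of 7 was higher and 0 lower, against 3.84% and 3.08%, and in Ly6i-led monocytes 2 of 9 and 0, against 4.78% and 2.73%. In non-classical monocytes 1 of 2 was higher and 0 lower, against 5.43% and 1.78%. In MoMFs 0 of 5 were higher or lower, against 4.91% and 3.82%. That count depends on the filter and the naming: without the gene limit and with classes from marker UMIs, MoMFs numbered 222 and 420 cells, and in them Il1a (25 and 975 UMIs, log2 ratio 2.42), Il1rn (29 and 1484 UMIs, log2 ratio 2.81) and Il18bp (log2 ratio 1.47) were past 2-fold higher and Gsdmd (log2 ratio −1.20) past 2-fold lower in the pool. In cDC1s 1 of 6 was higher and 0 lower, against 4.07% and 2.2%, and in cDC2s 2 of 6 (Il1b and Casp4) and 0, against 3.71% and 2.19%. Outside these classes, past 2-fold in either direction were 3 of 6 in T cells against 8.3% of all genes, 1 of 4 in NK cells or ILC1s against 6.21%, 0 of 4 in B cells against 6.22%, 2 of 4 in the cluster led by Ccl5, Cd8a and Gzmk against 10.7%, 2 of 8 in endothelial cells against 14.2%, and 6 of 8 in hepatocytes against 13.6%. Of those 6 in hepatocytes, 5 were lower and 1, Il1rn, was higher (5.92 and 13.5 CPM, log2 ratio 1.15, interval 0.64 to 1.78). The lower calls in hepatocytes were often lost: of 11 alternatives, Nlrp3 stayed past 2-fold in 5, Pycard in 6, Il1b and Il18bp in 7 each and Casp1 in 9, while Il1rn did in 11. The median log2 ratio over all genes tested lay between −0.27 in plasma cells and 0.11 in cDC1s, and the ratios given are not corrected for it.

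**Figure D5:**
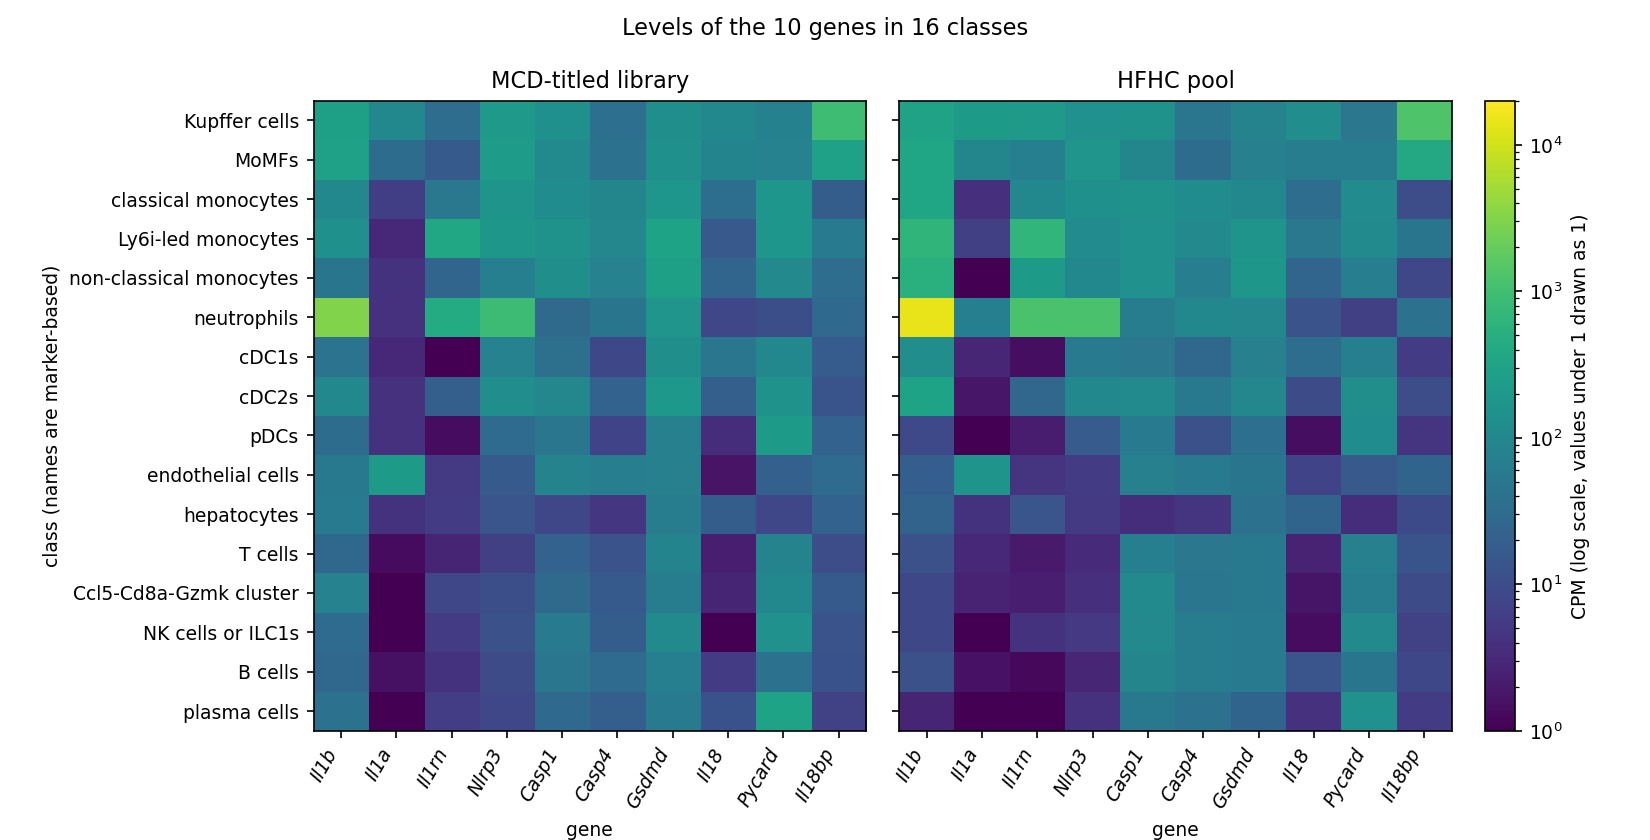
Level of the 10 genes (columns) in 16 classes (rows), in CPM on a logarithmic colour scale, in the MCD-titled library (left) and the HFHC pool (right). Il1b, Il1rn and Nlrp3 are brightest in neutrophils (14676, 1160 and 1146 CPM in the pool), Il18bp in Kupffer cells (1296 CPM in the pool), and Gsdmd and Pycard are spread over most classes.

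The rest of the pathway was read from lists written by hand. Genes that NF-κB induces in inflammation, of which Il1b is one by textbook knowledge, were often higher in the phagocytes of the pool. In neutrophils 11 of 13 were at least 2-fold higher in the pool and 0 lower, with a median log2 ratio of 3.01 against 0.02 over all genes. Tnf stood at 25.7 and 540 CPM, and Cxcl2, a chemokine that draws neutrophils, at 456 and 6937 CPM (log2 ratio 3.93, interval 3.85 to 4.01). In KCs 8 of 15 were higher and 1 lower, with a median log2 ratio of 1.27 against −0.02: Cxcl2 stood at 46.5 and 379 CPM and Ptgs2, which encodes cyclooxygenase-2, at 2.06 and 24.0 CPM, while Relb stood at 37.4 and 15.0 CPM. In classical monocytes 7 of 12, in Ly6i-led monocytes 6 of 13, in non-classical monocytes 4 of 6 and in MoMFs 4 of 9 were higher, and 0 lower. KCs thus differed in Cxcl2 (log2 ratio 3.02, interval 2.89 to 3.16) and Ccl4 (36.4 and 228 CPM, log2 ratio 2.65) while Il1b differed by 0.11. Dissociation genes also stood higher in these classes: their summed CPM was 5954 and 11873 in KCs and 17344 and 26578 in neutrophils.

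Among the other inflammasome sensors, 2 of 8 were higher in the KCs of the pool: Naip1, a sensor of bacterial secretion proteins, at 11.8 and 35.6 CPM (log2 ratio 1.59, interval 1.24 to 1.93), and Aim2, a sensor of DNA, at 43.1 and 87.0 CPM (log2 ratio 1.017, interval 0.81 to 1.22). Nlrc4 stood at 60.03 and 33.9 CPM (log2 ratio −0.81, interval −1.11 to −0.55). In neutrophils 2 of 4 were higher: Aim2 at 32.2 and 108 CPM and Mefv, which encodes pyrin, at 38.9 and 126 CPM. Aim2 was also past 2-fold in classical monocytes (44.4 and 106 CPM) and Ly6i-led monocytes (47.4 and 107 CPM).

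Partners of the inflammasome and other pore proteins differed in neutrophils, where 3 of 8 were higher in the pool: the interferon-induced guanylate-binding proteins Gbp5 (11.99 and 197 CPM) and Gbp2 (66.7 and 662 CPM), and Ninj1, which ruptures the membrane of dying cells (44.5 and 221 CPM, log2 ratio 2.31, interval 1.99 to 2.64). In KCs 0 of 10 were, with Ninj1 at 101 and 149 CPM. Of the genes that carry the signal of the IL-1 receptor, 0 of 9 in KCs and 0 of 7 in neutrophils passed 2-fold, and in classical monocytes 1 of 7 did, the inhibitor Irak3 (32.04 and 87.2 CPM, log2 ratio 1.401, interval 0.83 to 2.11). Of the receptors, neutrophils held Il1r2, the decoy receptor that binds IL-1 without signalling, at 1003 and 835 CPM (log2 ratio −0.26, interval −0.39 to −0.14), and Il1rap, the shared second chain, at 40.1 and 125 CPM (log2 ratio 1.64, interval 1.25 to 2.02). KCs had 1 receptor gene with enough UMIs, Il1rl2 at 7.42 and 6.78 CPM. Of the other IL-1 family ligands, Il1f9, which encodes IL-36γ, was a neutrophil transcript at 872 CPM (2981 UMIs) and 1052 CPM (819 UMIs), a log2 ratio of 0.27 (interval 0.16 to 0.38), so that it stood near Nlrp3 and apart from Il1b in its ratio.

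Other genes were most like the members in their levels over the same 32 points, and only the pattern is described. Il1a was most like Dysf (r = 0.917), Il1rn like Tnfaip2 (r = 0.913), Nlrp3 like Lrrc25 (r = 0.937), Casp1 like Tm9sf4 (r = 0.893), Gsdmd like Irak4 (r = 0.839), Il18 like C9orf72 (r = 0.892), Pycard like Tmem258 (r = 0.901) and Il18bp like Adgb (r = 0.949). Casp4 had the weakest likeness, with Nfkbia (r = 0.782) and, in the third place, its neighbour Casp1 (r = 0.775). Apart from that pair and Il1b with Nlrp3, no member was among the 3 genes most like another.

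A transcript on the opposite strand, Il1bos (ENSMUSG00000074805), overlaps Il1b by 1243 bases, of which 25 are exonic in both. It had 34 and 22 UMIs in kept cells, against 17170 and 16840 of Il1b. How the pipeline used strand is not given in the sources used here.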

How the data were processed

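Liver cells of 2 libraries were profiled with the BD Rhapsody whole transcriptome assay. The deposited tables hold UMI counts per cell and gene, which the authors made, per the file headers, with the maker's analysis pipeline against GRCm38 and which are corrected for errors in the molecular identifiers but not scaled. Of the 3 samples of the series, 2 have a table used here, and 0 columns of other samples were used. Sample tag reads were not analysed here.

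Cells with 200 to 4000 genes and at most 25% mitochondrial UMIs were kept, after the filter given by the study. Scrublet (scanpy 1.11.5) called 8.173% and 1.997% of kept cells doublets, and these cells were kept in the classes. Counts were normalized and integrated with sctransform 0.4.2 in Seurat 5.3.0 (R 4.3.3; 4000 features less the pathway genes, 30 principal components, 20 neighbours, resolution 0.8, seed 42), and phagocyte clusters were clustered again at resolution 0.5. Clusters were named from 20 marker lists. The naming thresholds, the rule for mixed clusters and which clusters were clustered again were decided after the clusters were seen. UMIs were summed per class and library and divided by the class total (CPM). Log2 ratios had 1 UMI added on each side. Intervals are exact Poisson for levels and exact binomial for shares and ratios, at 95%, and cover counting error only. Cells are not replicates, so no p-value was computed. The script was tested on simulated data. Alternatives were other filters, clusterings, class definitions, depths and scalings.

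The members and the lists were chosen with earlier results of these data known. Named were the 10 members in every class, up to 3 genes with the highest and 3 with the lowest ratio of each other list in KCs, monocytes and neutrophils, the 3 genes most like each member, and the 5 leading genes of the largest clusters. Genes named outside this rule were chosen after their values were seen.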

Additional observations from a re-analysis of the deposited data

Results flagged for a closer look

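Il1b differed between the libraries in opposite directions in different classes, and the difference between classes was not tested. It was past 2-fold higher in the HFHC pool in classical monocytes (log2 ratio 1.75), Ly6i-led monocytes (2.15), non-classical monocytes (3.42), neutrophils (2.24), cDC1s (1.59) and cDC2s (1.64). It was past 2-fold lower in T cells (−1.26), endothelial cells (−1.51) and hepatocytes (−1.34). The neutrophil transcripts S100a8 and S100a9 were lower in the pool in these classes. They were also lower in the classes where Il1b was higher, except in non-classical monocytes.

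Casp1 was likewise past 2-fold in opposite directions, and this difference was not tested. It was higher in the pool in T cells (log2 ratio 1.63), neutrophils (1.08) and the cluster led by Ccl5, Cd8a and Gzmk (1.73), and lower in hepatocytes (−1.18).

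Cells left out by the filters held most of the UMIs of 3 genes in the pool. The kept cells of the pool held 32.8% of Il1a UMIs, 38.3% of Il18 UMIs and 22.4% of Il18bp UMIs, against 95.8%, 93.8% and 94.9% in the MCD-titled library. With those cells of more than 4000 genes kept and named by marker UMIs, the log2 ratio in KCs was 1.17 for Il1a, 0.48 for Il18 and 0.59 for Il18bp.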

How the results depend on the processing

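No ratio of the 10 genes that was past 2-fold changed its direction under any of the alternatives run. Smaller ratios did so in some. With cells thinned to 1000 UMIs, 60 of 91 ratios stayed within their counting interval and 80 kept their sign. With no upper limit on genes and classes from marker UMIs, 61 of 78 stayed within it and 74 kept their sign. Of the genes past 2-fold higher in KCs, 1 was left when classes came from each cell's own marker UMIs, against 2. Past 2-fold lower in KCs was 1 gene with no upper limit on genes and classes from marker UMIs, which changes both choices together, and 1 with cells thinned to 1000 UMIs, against 0. In the 3 monocyte classes together, 2 were higher with thinned cells, against 4, and 2 at resolution 1.0, where classical monocytes were the only monocyte class formed. NF-κB response genes past 2-fold higher in KCs numbered 5 with marker UMIs and 4 with thinned cells, against 8. The share of cells with an Il1b UMI depended on depth. At 500 UMIs, 2000 UMIs and without thinning it was 66%, 81.4% and 81.0% in neutrophils of the MCD-titled library, 11.9%, 33.1% and 48.4% in its KCs, and 8.48%, 26.2% and 46.3% in KCs of the pool. Leaving out cells with an S100a8 or S100a9 UMI and keeping mixed clusters were chosen after seeing the data. No paired analysis was possible because each group has 1 library, and for the same reason no library could be left out.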

Other observations

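T cells held more RNA of several IL-1 family receptors in the pool, which were chosen after their values were seen. Of 5 receptor genes with at least 100 UMIs, 3 were past 2-fold higher and 0 lower, with a median log2 ratio of 1.402 against 0.05 over all genes. Il18r1, a chain of the IL-18 receptor, stood at 73.7 and 227 CPM (log2 ratio 1.62), Il1rl1, the receptor of IL-33, stood at 7.92 and 23.6 CPM (log2 ratio 1.55), and Il1r1, the signalling receptor of IL-1, had a log2 ratio of 1.402 (6.03 and 16.3 CPM). The T cell class was made up of different clusters in the libraries, with the Foxp3-led cluster at 586 of 2756 cells and 953 of 1686, and the part of this in the receptor values was not tested. Endothelial cells held Il33 at 12.4 and 19.1 CPM (log2 ratio 0.62).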
